A study of Mus musculus with 6 samples.

Results

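The interferon regulatory factors (IRFs) are a family of transcription factors, and 8 of their genes (Irf1, Irf2, Irf3, Irf4, Irf5, Irf7, Irf8 and Irf9) together with Irf2bp2, which encodes a corepressor that binds IRF2, are described here in CD11b-positive cells of the mouse spinal cord after electroconvulsive seizures (ECS). The 9 genes were taken by symbol from a deposited table of 47719 genes, and each symbol stood on a single row. ECS are convulsions evoked by passing a short electric current. The Biozzi ABH mice, an inbred strain, were 3 months old and had either 3 ECS sessions, 1 per day, or control treatment. They were killed a day later. The labels call the control mice naive in one place and sham-treated in another. Each group had 3 libraries, and each library held the cells of 5 pooled mice, so n counts pools and no value belongs to a single animal. Cells were selected with beads against CD11b, an integrin of microglia that other myeloid cells carry as well.

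IRF proteins share a DNA-binding domain that recognises GAAA repeats in the promoters of interferon-stimulated genes. IRF3, IRF5 and IRF7 carry the signal of Toll-like and nucleic acid receptors to cytokine and interferon genes, whereas IRF9 is part of the complex ISGF3, which transmits the type I interferon signal. IRF8 pairs with PU.1 and is needed for the development of microglia, and IRF1 and IRF2 bind the same sites with largely opposite effects.

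Promoters are shown for the 2 most abundant members, Irf5 and Irf1, and for Irf8 and Irf2, which held matches to elements read by STAT, NF-kB or IRF proteins. The sequences below are RefSeq windows of GRCm38.p6, 5′ to 3′ on the coding strand. Those of Irf1, Irf8 and Irf5 end at the base before the RefSeq start site, and that of Irf2 is a stretch of 30 bases around its IRF element. Capitals mark matches to the STAT element TTCNNNGAA, to the NF-kB consensus or, in Irf2, to the IRF element, which is GAAA, any 2 bases and GAAA.
Irf1 (chr11:53769764-53770013, plus strand): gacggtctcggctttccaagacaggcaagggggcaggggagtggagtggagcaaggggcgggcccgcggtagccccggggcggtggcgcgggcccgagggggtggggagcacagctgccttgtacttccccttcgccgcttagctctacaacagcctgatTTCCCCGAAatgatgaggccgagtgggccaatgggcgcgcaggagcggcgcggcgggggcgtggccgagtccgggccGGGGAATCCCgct
Irf8 (chr8:120736108-120736357, plus strand): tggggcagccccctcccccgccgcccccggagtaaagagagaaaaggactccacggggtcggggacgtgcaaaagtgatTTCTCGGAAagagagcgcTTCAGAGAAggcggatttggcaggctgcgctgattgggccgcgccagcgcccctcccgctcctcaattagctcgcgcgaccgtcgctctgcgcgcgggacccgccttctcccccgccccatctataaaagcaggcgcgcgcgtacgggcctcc
Irf5 (chr6:29526375-29526624, plus strand): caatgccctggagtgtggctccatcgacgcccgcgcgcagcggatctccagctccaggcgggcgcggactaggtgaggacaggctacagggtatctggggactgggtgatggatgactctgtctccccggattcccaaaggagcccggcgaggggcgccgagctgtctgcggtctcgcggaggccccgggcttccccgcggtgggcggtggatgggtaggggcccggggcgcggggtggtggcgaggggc
Irf2 (chr8:46739495-46739524, plus strand, part of the window): tggggaagtGAAAATGAAAttgacttttcc

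In Irf1 the STAT element began at position -90 and the NF-kB match at -13, counted from the start site. Irf8 held STAT elements at -171 and -153. Irf2 held the IRF element at -241, a STAT element at -224 and an NF-kB match at -17. Both strands of the 250 bases before each RefSeq start site were searched, and the other 6 members had no match to these 3 motifs in their windows. Both windows of Irf9 lie inside the gene as GENCODE annotates it, so the bases upstream of that gene were not searched, and 181 of the 250 bases of the Irf3 window lie in annotated exons. In the Irf2 window 34 of the 250 bases lie in annotated exons, the first base among them. Its NF-kB match reaches into Irf2 as GENCODE annotates that gene. Among 32851 windows of the same length over all genes, 2.98% held the IRF element, 7.02% the STAT element and 7.25% the NF-kB consensus. The matches describe sequence and do not show that a factor binds there.

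All 9 genes were above 0 in all 6 libraries, and they spanned a wide range of levels. The deposited unit is FPKM, which divides the fragments of a gene by its transcript length and by the fragments of the library, so levels can be compared between genes. That comparison is less certain for members that overlap another gene, among them Irf5, Irf8 and Irf9. Irf5 was the most abundant, at a mean of 200.8 FPKM over the 6 libraries, followed by Irf1 at 147 FPKM. Irf7 (45.1 FPKM), Irf8 (32.2), Irf2bp2 (30.5), Irf2 (25.9), Irf3 (21.0) and Irf9 (19.5) came next, and Irf4 was lowest at 6.85 FPKM. Among the 11315 genes whose mean reached 1 FPKM, Irf5 ranked 462 from the top and Irf4 ranked 5962.

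Irf1 lay above Irf7, the next in the order, in 6 of 6 libraries with no overlap of their ranges. Irf9 likewise lay above Irf4, but the range of Irf3 overlapped that of Irf4, and in control 3 Irf3 was the lower of the pair, at 4.33 against 8.65 FPKM. The remaining neighbours in the order did not differ beyond their spread: Irf5 exceeded Irf1 in 5 of 6 libraries, Irf7 exceeded Irf8 in 4 of 6, Irf8 exceeded Irf2bp2 in 3 of 6, Irf2bp2 exceeded Irf2 in 4 of 6, Irf2 exceeded Irf3 in 5 of 6 and Irf3 exceeded Irf9 in 3 of 6, each with overlapping ranges. Irf5 and Irf1 together made up between 60.6% (ECS 1) and 75.5% (ECS 3) of the summed FPKM of the 8 IRF genes. Irf5 was between 5.35 and 8.02 times as high as Irf8 in every library. The sum itself was 541, 482 and 420 FPKM in control libraries 1, 2 and 3, against 566, 413 and 570.4 in ECS libraries 1, 2 and 3, so the groups overlapped.

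**Figure D1:**
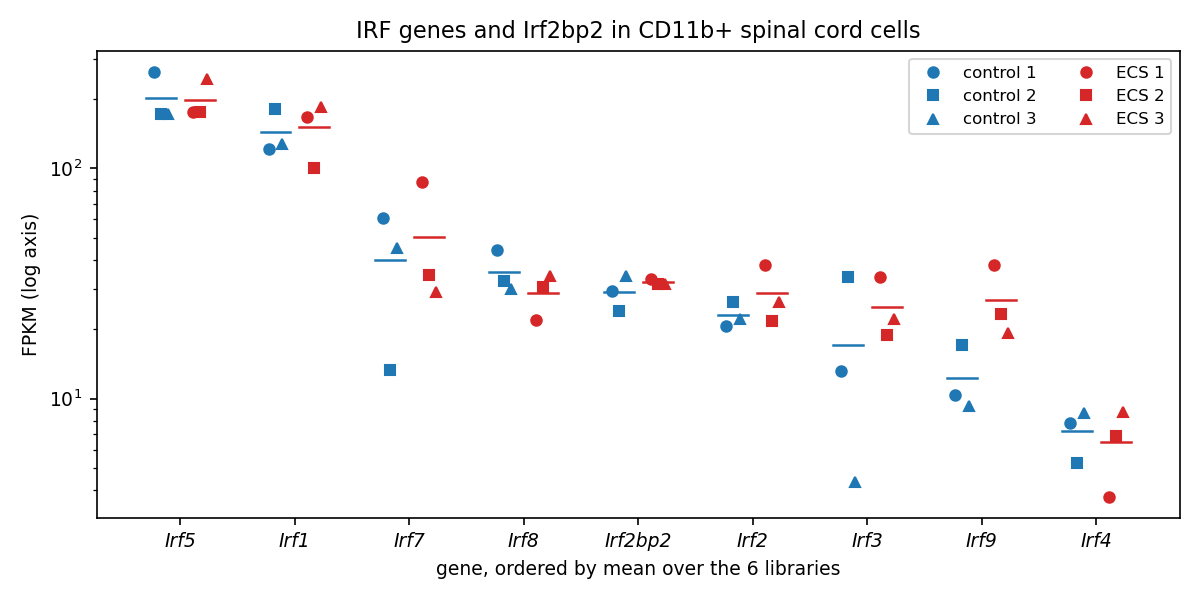
FPKM (log axis) of each gene in the 6 libraries, control in blue and ECS in red, with a bar at each group mean of 3 pools. Irf5 and Irf1 lie above 100 FPKM in every library, Irf4 below 9 FPKM, and Irf9 is the gene whose groups do not overlap.

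**Figure D2:**
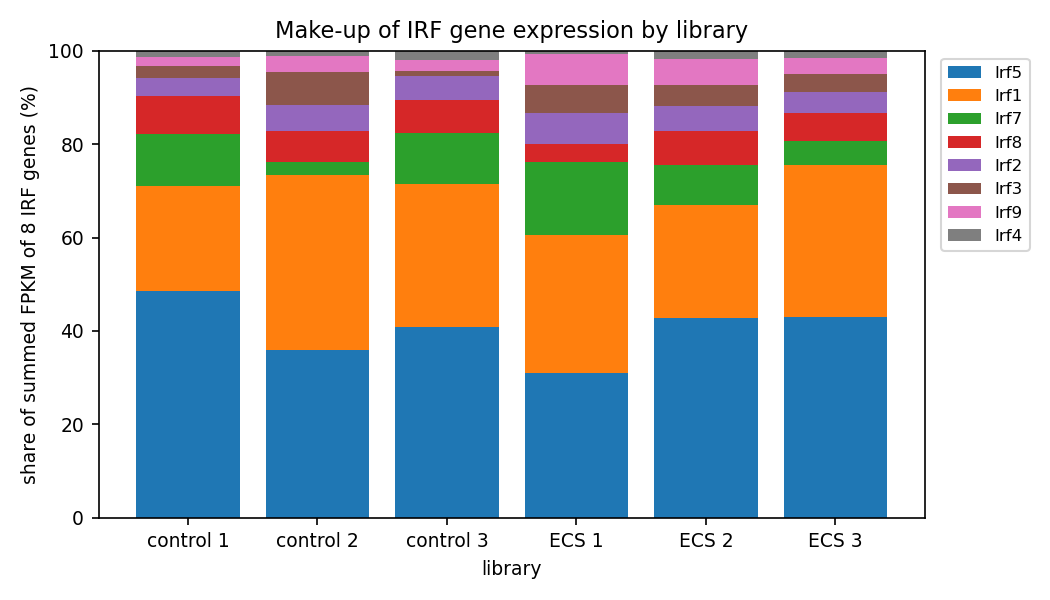
Share (%) of the summed FPKM of 8 IRF genes taken by each gene, 1 bar per library. Irf5 and Irf1 fill 60.6% to 75.5% of every bar, and the Irf7 share ranges from 2.75% in control 2 to 15.4% in ECS 1.

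The comparison of ECS with control asked whether the seizures were followed by a different IRF make-up in these cells. None of the 9 genes was called, with limma on log2(FPKM + 1) and an adjusted p of 0.05 over all 11315 genes as the threshold, and the adjusted p was 1.00 for each of them. Over all genes tested 0% were called higher and 0% lower at that threshold. Before adjustment, 194 genes (1.71%) had a p under 0.05 and higher values, and 220 (1.94%) had such a p and lower values. Of the members, 6 had higher and 3 had lower mean log2 values in ECS. Their median log2 fold change was 0.14, beside 49.2% with higher values and a median of -0.0078 over all genes tested. The median of the members was 0.32 without ECS replicate 2 and 0.017 without control replicate 2. The 95% intervals show what these pools could resolve: their half-width was 0.63 log2 units for Irf2bp2, the narrowest, and 1.55 for Irf3, the widest.

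Irf9 had the largest difference, with means that differed 2.19-fold and an unadjusted p that did not survive adjustment. It encodes the DNA-binding subunit of ISGF3. Irf9 was at 10.4, 17.1 and 9.28 FPKM in control libraries 1, 2 and 3, against 37.9, 23.4 and 19.2 in ECS libraries 1, 2 and 3. Every ECS library lay above every control library, and ECS 1 was highest. The means were 12.3 ± 4.23 FPKM in control pools and 26.8 ± 9.79 in ECS pools (SD, n = 3 each). The log2 fold change was 1.06 ± 0.39 (SE; 95% interval 0.15 to 1.97), with a limma unadjusted p of 0.0279, which ranked 227 among all genes, and an adjusted p of 1.00. Of the 9 members, Irf9 was the 1 whose groups did not overlap. Over all genes tested, 3.7% had every ECS library above every control library, and 3.79% had every one below. Without ECS replicate 1 the log2 fold change of Irf9 was 0.79, with a limma unadjusted p of 0.0811. That p was also above 0.05 without control replicate 1 (0.0763), control replicate 3 (0.0858) or ECS replicate 2 (0.0517). It was 0.0171 without control replicate 2 and 0.0267 without ECS replicate 3.

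Irf9 shares its locus with a neighbour. Irf9 lies on chromosome 14 (GRCm38, 55603571 to 55610030, plus strand), and its annotated exons share 123 bases with those of Rnf31, which lies just upstream on the same strand and encodes a subunit of the linear ubiquitin ligase. Rnf31 was at 44.3, 14.7 and 13.9 FPKM in control libraries 1, 2 and 3, against 103, 19.8 and 38.8 in ECS libraries 1, 2 and 3. Its groups overlapped, and ECS 1 was again highest. The ratio of Rnf31 to Irf9 ranged from 0.847 in ECS 2 to 4.26 in control 1. Reads in shared exons are divided between the genes by estimation, so both values are uncertain, and the part of Rnf31 in the Irf9 difference was not tested.

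The mean over markers of border-associated macrophages, which sit in the meninges and around blood vessels, was higher in ECS, as Irf9 was. Control libraries 1, 2 and 3 had mean log2(FPKM + 1) values of 3.72, 3.52 and 3.81 over 8 such genes, and ECS libraries 1, 2 and 3 had 4.81, 4.51 and 3.96, so the groups did not overlap. The gap between control 3 and ECS 3 was narrow and leaned on Cbr2, at 15.1 FPKM in control 3 and 86.3 in ECS 3. Mrc1, Lyve1, Pf4 and F13a1 were lower in ECS 3 than in control 3, and the other markers were higher. The separation therefore does not describe these markers as a set. Their summed FPKM was 150 to 173 in control and 221 to 658 in ECS. The sum rested in part on single genes in single libraries. Pf4 was at 9.86, 16.9 and 75.7 FPKM in control libraries 1, 2 and 3, against 117, 427 and 6.87 in ECS libraries 1, 2 and 3. Clec10a was at 213 FPKM in ECS 1. Of the 8 markers, 6 had higher and 2 had lower values in ECS. All 8 were above 0 in every library, and 2 of the 8, Cbr2 and Clec10a, had groups that did not overlap, both with higher values in ECS, where 3.7% of all genes tested had such groups. The defining markers Mrc1 and Lyve1 were low and overlapped, Mrc1 at 5.98 to 9.96 FPKM in control and 4.83 to 12.7 in ECS. Erythroid markers had mean log2 values of 5.26 to 6.91 in control and 7.14 to 7.62 in ECS, but each of the 5 genes overlapped between groups, as did their sum (2231 to 32752 FPKM in control, 7207 to 77284 in ECS). Of these, Hba-a1 was listed at 0 in 4 libraries and reached 2059 FPKM in control 1 and 6510 FPKM in ECS 3. Neutrophil markers lay the other way: 10 of 10 had lower values in ECS (median log2 fold change -0.59), their sum was 11189 to 20510 FPKM in control and 8589 to 10543 in ECS, and their mean log2 values overlapped (8.51 to 9.60 against 8.31 to 8.65). Ngp, a granule protein gene and the most abundant of them, was at 6764 ± 1231 and 4784 ± 1047 FPKM (SD, n = 3 each). The part of these cell types in the Irf9 difference was not tested. In such bulk samples, fewer cells of a type and less RNA per cell cannot be told apart.

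**Figure D3:**
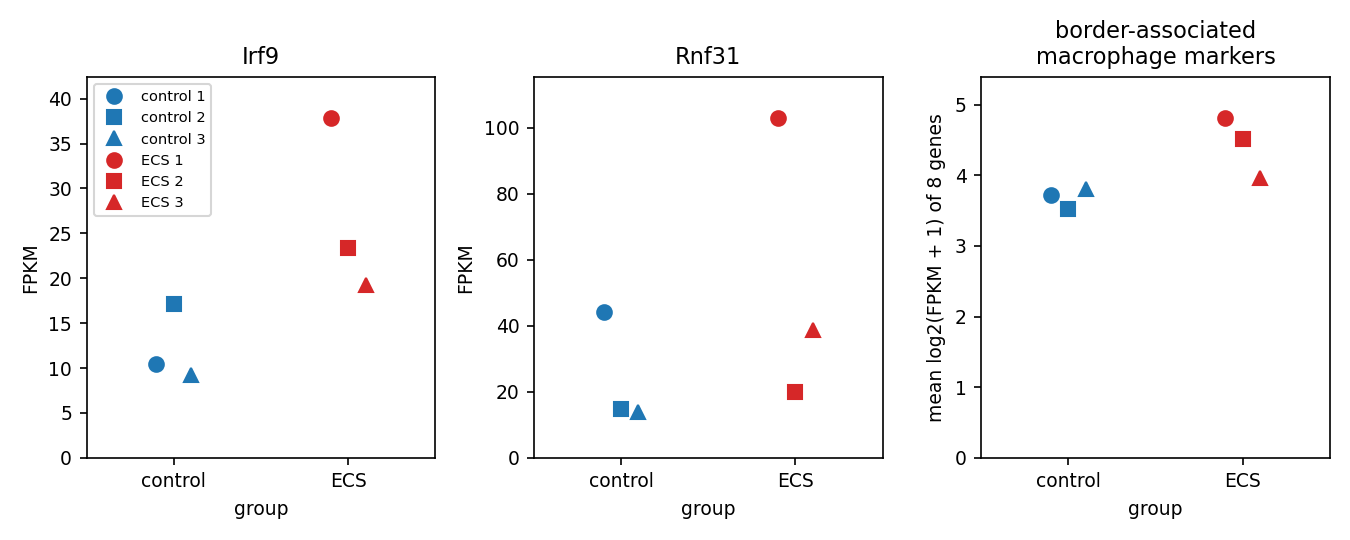
Irf9 (left, FPKM), the overlapping gene Rnf31 (middle, FPKM) and the mean log2(FPKM + 1) of 8 border-associated macrophage markers (right) in each library, control in blue and ECS in red. Irf9 and, narrowly, the mean of the macrophage markers do not overlap between groups, Rnf31 does, and ECS 1 is highest in all 3 panels.

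Stat2, which encodes a partner of IRF9 in ISGF3, overlapped between groups. It was at 8.35, 6.39 and 7.10 FPKM in control libraries 1, 2 and 3, against 7.83, 11.0 and 13.1 in ECS libraries 1, 2 and 3. The log2 fold change of Stat2 was 0.47 ± 0.35 (SE). Of 26 target genes of ISGF3, 20 were tested, 8 with higher and 12 with lower values in ECS. Their median log2 fold change was -0.27, and 0 were called. Of the 26, 12 were listed at 0 in at least 1 library, which in a table without read numbers may be a failed estimate. Ifi44, an interferon-induced gene, was listed at 0 in control 1 and at 5.23 and 4.31 FPKM in control 2 and 3, and was listed at 0 in ECS 1 and at 0.124 and 0.241 FPKM in ECS 2 and 3. Xaf1, whose product binds an apoptosis inhibitor, was at 17.8, 14.7 and 2.84 FPKM in control libraries 1, 2 and 3, against 0.00897, 13.1 and 0.716 in ECS libraries 1, 2 and 3. Trim30a was the 1 tested target whose groups did not overlap, at 11.1 to 13.6 FPKM in control pools and 14.1 to 17.7 FPKM in ECS pools. Over all genes tested, 3.7% had every ECS library higher and 3.79% had every one lower. Trim30a was chosen for mention after its values were seen. The most abundant target, Lgals3bp, was at 370 ± 84.7 and 441 ± 80.5 FPKM (SD, n = 3 each).

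Irf7, the factor that amplifies type I interferon production and is itself interferon-induced, varied more between libraries than between groups. It was at 61.0, 13.3 and 45.2 FPKM in control libraries 1, 2 and 3, against 87.3, 34.6 and 29.2 in ECS libraries 1, 2 and 3. The lowest value was in control 2 and the highest in ECS 1, a 6.58-fold range. Its log2 fold change was 0.40 ± 0.64 (SE) and turned to -0.23 without control replicate 2 and to -0.073 without ECS replicate 1. Its within-group SD of 0.99 log2 units was at or above that of 85.4% of 1999 genes with a mean level within 2-fold of its own. At its 3′ end Irf7 shares 45 exonic bases with Phrf1 on the opposite strand, which was at 14.5 to 33.2 FPKM.

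Irf3, the constitutive factor of the first wave of interferon induction, had the widest range of all members as a ratio, with its highest value 7.83 times its lowest. Irf3 was at 13.1, 33.9 and 4.33 FPKM in control libraries 1, 2 and 3, against 33.8, 18.8 and 22.1 in ECS libraries 1, 2 and 3. The control libraries alone covered the whole range, and the ECS libraries fell within it. Its log2 fold change of 0.87 ± 0.66 (SE) was 0.18 without control replicate 3 and 1.54 without control replicate 2, with an unadjusted p of 0.0275 in the latter. Irf3 shares 88 exonic bases with Bcl2l12 on the opposite strand, which was at 1.21 to 18.8 FPKM and lowest in ECS 1, where Irf3 was at 33.8 FPKM.

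Irf5, the factor that drives inflammatory cytokine genes in macrophages, was at nearly the same level in both groups. Irf5 was at 262, 173 and 172 FPKM in control libraries 1, 2 and 3, against 176, 176 and 245 in ECS libraries 1, 2 and 3. Control 1 and ECS 3 were high and the other 4 libraries lay close together. The means were 202 ± 51.9 and 199 ± 40.0 FPKM (SD, n = 3 each), and the 95% interval of the log2 fold change reached from -0.65 to 0.62, which is 0.638- to 1.54-fold. Control 1 and ECS 3 also had the highest mean log2 values of 10 microglia markers, 9.03 and 8.76, against 8.16 to 8.65 in the other libraries. Of these markers 2 had higher and 8 had lower values in ECS (median log2 fold change -0.098), and 0 were called. Fcrls was the 1 whose groups did not overlap, at 146 to 213 FPKM in control and 78.2 to 102 in ECS. Its limma unadjusted p was 0.00782. Over all genes tested, 3.79% had every ECS library below every control library. Irf5 shares 411 exonic bases with Tnpo3 on the opposite strand, which was at 7.21 to 18.4 FPKM.

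Irf8, which microglia need for their development and which directs reactive states after nerve injury in mice, was at 44.2, 32.4 and 29.9 FPKM in control libraries 1, 2 and 3, against 21.9, 30.5 and 34.2 in ECS libraries 1, 2 and 3. Control 1 was highest and ECS 1 lowest, and the groups overlapped. The log2 fold change was -0.29 ± 0.31 (SE; 95% interval -1.01 to 0.43), and it was -0.11 without ECS replicate 1. Irf8 lies on chromosome 8 (GRCm38, 120736358 to 120756694, plus strand), within the predicted gene Gm20388, which runs over it on the same strand without sharing an exon and was at 9.41 to 20.2 FPKM. The deposited locus of Irf8 spans 4.43 Mb (119910359 to 124345724), close to the extent of Gm20388 (119910841 to 124345722). Spi1, which encodes the IRF8 partner PU.1, was far more abundant, at 741 ± 171 FPKM in control pools and 697 ± 127 in ECS pools (SD, n = 3 each). Its log2 fold change was -0.076 ± 0.26 (SE).

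The genes whose pattern over the 6 libraries was most like that of Irf8, among 4478 genes whose mean reached 10 FPKM with no 0, were Smad1 (r = 0.99), Fam98c (0.98) and Rapgef5 (0.98). For Irf9 they were Fgd3 (r = 0.99), Sbf2 (0.99) and Sgpl1 (0.98). These Pearson correlations of log2 values describe 6 libraries that share their dissociation and sorting, and 50 and 44 of the genes compared exceeded an r of 0.9 with Irf8 and Irf9. Between members the r of log2 values ranged from -0.81 (Irf2 and Irf4) to 0.79 (Irf2 and Irf9), and 17 of 36 pairs were above 0. ECS 1 held the highest value of 3 members (Irf2, Irf7 and Irf9) and the lowest of 2 (Irf4 and Irf8). Of the genes tested, 1580 were listed at 0 in ECS 1, and 448 to 806 in each of the remaining libraries.

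Irf1, an activator induced by interferon gamma, was at 122, 181 and 128 FPKM in control libraries 1, 2 and 3, against 167, 100 and 185 in ECS libraries 1, 2 and 3. ECS 2 was lowest and ECS 3 highest, so both extremes were in the ECS group. Its log2 fold change of 0.047 ± 0.31 (SE) had the opposite sign in 6 of 16 alternative settings. Irf1 shares 135 exonic bases with Gm17334 on the opposite strand, which was at most at 0.640 FPKM. Irf2, the antagonist of IRF1 at shared sites, was at 20.6, 26.4 and 22.2 FPKM in control libraries 1, 2 and 3, against 38.1, 21.7 and 26.3 in ECS libraries 1, 2 and 3. The groups overlapped, ECS 1 stood above the rest, and the log2 fold change was 0.27 ± 0.31 (SE). The ratio of Irf1 to Irf2 lay between 4.39 and 7.05 over the 6 libraries and overlapped between groups.

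Irf2bp2 was the steadiest member. It was at 29.3, 24.0 and 34.0 FPKM in control libraries 1, 2 and 3, against 33.0, 31.4 and 31.4 in ECS libraries 1, 2 and 3. The ECS values fell within the control range. Its within-group SD of 0.18 log2 units was at or above that of 5.44% of 2461 genes at a like level, and its log2 fold change was 0.14 ± 0.27 (SE). The other genes of its family also overlapped between groups: Irf2bpl was at 21.0 ± 4.70 and 25.8 ± 4.86 FPKM, and Irf2bp1 at 3.36 ± 1.33 and 3.62 ± 1.19 FPKM in control pools and ECS pools (SD, n = 3 each). Irf2bp2 overlaps the antisense gene Gm26759 over 1039 exonic bases, and that gene was listed at 0 in all libraries.

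Irf4, a factor of B cells, plasma cells and some macrophages and dendritic cells, was at 7.81, 5.27 and 8.65 FPKM in control libraries 1, 2 and 3, against 3.75, 6.91 and 8.71 in ECS libraries 1, 2 and 3. ECS 1 was lowest and the other libraries overlapped. The log2 fold change was -0.18 ± 0.42 (SE), and 0.11 without ECS replicate 1. The mean log2 value of 9 B cell markers was 3.50 in ECS 1 and 1.25 to 2.50 in the other libraries. It rested on Pax5, at 652 FPKM in ECS 1 and at most 1.71 elsewhere: without that gene, a choice made after its values were seen, the mean of the other 8 was 2.76 in ECS 1 and 1.39 to 2.63 in the other libraries. Of these markers Ighm was listed at 0 in all libraries. Markers of T and NK cells were near 0 (Cd3e at most 3.29 FPKM, Trac listed at 0 throughout), apart from Nkg7 at 62.4 to 290 FPKM. The 4 of 9 that were tested had lower values in ECS (median log2 fold change -0.71).

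**Figure D4:**
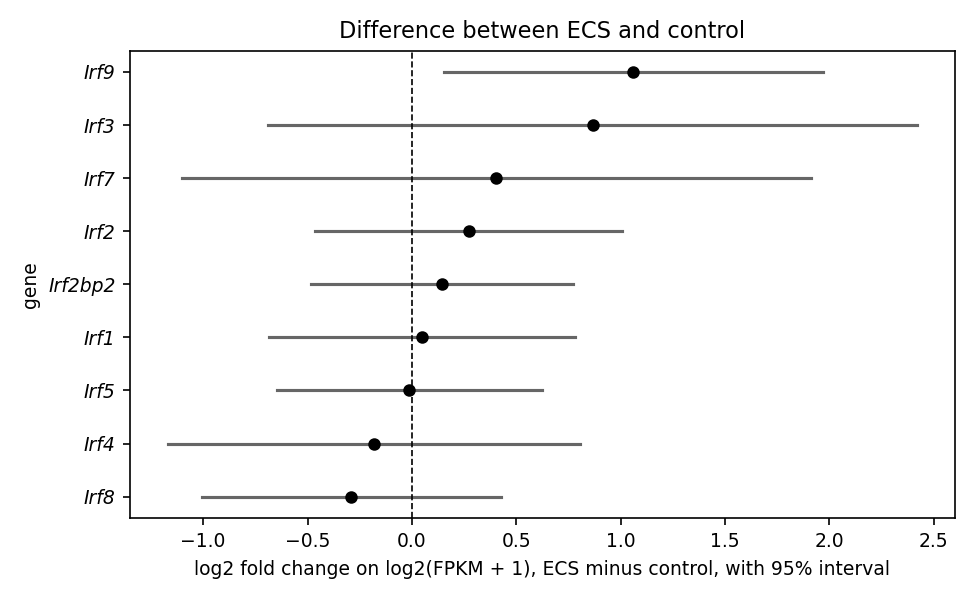
Log2 fold change (ECS minus control, on log2(FPKM + 1)) of each gene as a point with its 95% interval from limma as a line. The intervals of 8 of 9 genes include 0, and that of Irf9 runs from 0.15 to 1.97 before any adjustment for the number of genes tested.

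The genes that activate IRF proteins or act with them did not pass the test either. Of 21 genes of IRF activation, all were tested, 13 with higher and 8 with lower values (median 0.034), and 0 were called. Unc93b1, which escorts endosomal Toll-like receptors, was the most abundant of them at 564 ± 146 FPKM in control pools and 522 ± 101 in ECS pools (SD, n = 3 each). Tlr4, the lipopolysaccharide receptor gene, was at 39.9 ± 18.0 and 25.7 ± 8.85 FPKM (SD, n = 3 each). Ddx58, which encodes the RNA sensor RIG-I, was at 7.45, 7.74 and 6.46 FPKM in control libraries 1, 2 and 3, against 19.0, 7.95 and 8.81 in ECS libraries 1, 2 and 3. It was the 1 gene of this list whose groups did not overlap. The shares over all genes tested were again 3.7% with every ECS library higher and 3.79% with every one lower.

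Of 14 partners and cofactors, 9 had higher and 5 had lower values (median 0.093), and 0 were called. Ep300, a histone acetyltransferase gene, was at 16.0, 4.65 and 36.8 FPKM in control libraries 1, 2 and 3, against 30.7, 50.1 and 49.1 in ECS libraries 1, 2 and 3. Its groups overlapped, and the log2 fold change was 1.49 ± 0.66 (SE). Batf, whose product binds composite sites with IRF4 and IRF8, was at 45.9 ± 11.8 and 29.6 ± 10.2 FPKM (SD, n = 3 each). Of 13 interferon and receptor pathway genes 10 were tested, 7 with higher and 3 with lower values (median 0.073), and 0 were called. Ifna2, Ifna4 and Ifng were listed at 0 in all libraries, and Ifnb1 was at 4.71, 0.281 and 0.485 FPKM in control, while ECS 1 was listed at 0 and ECS 2 and 3 had 5.07 and 6.36 FPKM. The receptor gene Ifngr1 had the highest mean over the 6 libraries (97.6 FPKM), at 94.6 ± 16.8 and 101 ± 15.2 FPKM. Ifnar2, a subunit of the type I interferon receptor, had a mean of 93.9 FPKM and was the higher of these in the control pools, at 106 ± 28.6 against 81.9 ± 14.9 FPKM in ECS pools. Jak2, a receptor kinase gene, was at 5.52 ± 3.59 and 8.24 ± 1.53 FPKM (SD, n = 3 each).

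Of 15 targets of IRF1 in antigen presentation 13 were tested, 6 with higher and 7 with lower values (median -0.041), and 0 were called. Tap2, a subunit of the peptide transporter, was at 57.7, 67.9 and 151 FPKM in control libraries 1, 2 and 3, against 26.7, 38.2 and 49.4 in ECS libraries 1, 2 and 3. Its groups did not overlap, with lower values after ECS. The log2 fold change was -1.16 ± 0.43 (SE) at a limma unadjusted p of 0.0285. Psme1, a proteasome activator gene, was the other of 2 such genes of this list, at 318 to 341 FPKM in control and 204 to 314 in ECS, and 3.79% of all genes tested had every ECS library below every control library. Tap1, the other subunit of the transporter, overlapped between groups and was at 4.66 to 7.64 FPKM in control and 4.20 to 12.7 in ECS. B2m, the light chain of MHC class I, was at 22019 ± 6555 and 20949 ± 3478 FPKM, and the guanylate-binding protein gene Gbp2 at 7.81 ± 2.23 and 3.96 ± 2.60 FPKM (SD, n = 3 each).

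Of 14 targets of IRF8 and IRF5 in microglia 6 had higher and 8 had lower values (median -0.098), and 0 were called. The invariant chain gene Cd74 was the most abundant, at 2294 ± 306 and 2095 ± 777 FPKM. The cytokine gene Il6 was at 40.2, 44.2 and 54.8 FPKM in control libraries 1, 2 and 3, against 6.49, 40.7 and 25.1 in ECS libraries 1, 2 and 3, so that ECS 2 lay within the control values. Il1b was at 376 ± 65.0 and 567 ± 214 FPKM (SD, n = 3 each). P2rx4, a purinergic receptor gene downstream of Irf5 in microglia of mice with nerve injury, was at 9.86 to 21.8 FPKM in control and 12.4 to 24.7 in ECS.

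**Figure D5:**
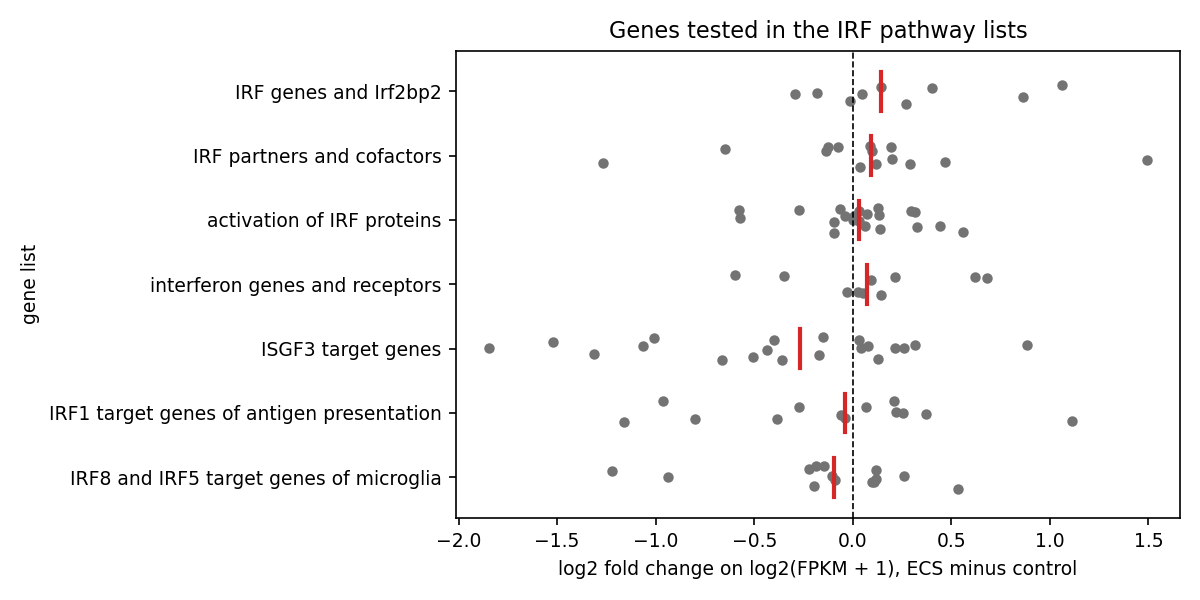
Log2 fold change (ECS minus control, on log2(FPKM + 1)) of each tested gene, 1 row per list, with the list's median as a red bar. The medians lie between -0.27 for ISGF3 targets and 0.14 for the IRF genes and Irf2bp2.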

How the data were processed

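Poly(A) RNA was sequenced, 1 library per pool of mice. The submitters' processing notes name TopHat2, Cufflinks, Cuffnorm and GRCm38. Tool versions, gene annotation, strand use and library scaling are not given in the sources used. The deposited values are FPKM per gene, made by the authors. They keep no read number, so depth is unknown and counting error cannot be computed. The sum per library ranged from 729831 to 1009665 FPKM and genes above 0 from 11427 to 14900.

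Libraries were grouped by their labels, and nothing in the labels shows a batch. The test ran on log2(FPKM + 1), a scale that understates changes of low genes, and took the 11315 genes (23.7%) whose mean reached 1 FPKM. It was limma 3.58.1 (R 4.3.3) with a trended variance, two-sided, and p-values were adjusted by Benjamini-Hochberg across those genes at a threshold of 0.05. The script was tested on simulated data in which only highly abundant genes were changed. Most members lay below those levels, so that test does not cover them. Positions and overlaps come from GENCODE M21 (GRCm38), promoter windows from RefSeq. Counting may not have used strand, so reads of genes that overlap on opposite strands cannot be told apart.

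The 9 genes, the lists and the rule for named genes were chosen with earlier results of these data known. Beside the members, the rule names from each list the most abundant gene and the 2 with the smallest unadjusted p, partners, and overlapping genes. Some genes under this rule are not reported here. Genes outside it (Trim30a, Psme1, Tap1, Ifnb1, P2rx4, the other Irf2bp genes) were named after their values were seen, and so were the markers named. Lists are described by counts and medians without a test. Monocyte, dendritic cell, oligodendrocyte and endothelial markers were computed as well (median log2 fold changes -0.38, 0.023, 0.36 and -0.39). Replicate numbers are shared by the labels. The labels do not state a shared animal or day for a number, so the main fit has no block. Correlations of deviations from the group means were -0.038, 0.097 and -0.11 for numbers 1, 2 and 3. They were not compared with other pairings and cannot exclude a shared day. Alternatives are listed under the dependence on the processing. Figures were drawn with matplotlib 3.10.9.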

Additional observations from a re-analysis of the deposited data

How the results depend on the processing

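In all 16 alternatives run, 0 members were called higher and 0 lower, and 0 of all genes tested were called in either direction, with 260 to 557 genes at an unadjusted p under 0.05. The alternatives were pseudocounts of 0.1 and 0.5, no filter and a filter at 5 FPKM, rescaling to the same total, by the median ratio and by quantiles, library weights, no variance trend, a replicate block and each replicate left out. The median log2 fold change of the members was 0.14 and ranged from 0.017 to 0.32 with each replicate left out. With the replicate block it was 0.14, Irf9 had an unadjusted p of 0.0421, and 0 members were called. The labels do not state that libraries of the same number share a day, and the check of deviations cannot settle it. Irf9 kept a positive log2 fold change in all 16 alternatives (0.79 to 1.31, limma unadjusted p 0.0171 to 0.0858, adjusted p 0.874 to 1.00), as did Irf3 (0.18 to 1.54), Irf2 (0.056 to 0.45) and Irf2bp2 (0.017 to 0.26), and Irf8 stayed negative (-0.42 to -0.11). Of 144 member values 13 had the opposite sign, for 4 members. Irf1 was at -0.042 with libraries rescaled to the same total and -0.0034 with quantile normalization, and between -0.12 and 0.32 with each replicate left out. Irf5 was at 0.018 with library weights and between -0.17 and 0.19 with each replicate left out, Irf4 between -0.40 and 0.11, and Irf7 between -0.23 and 0.83. The cause was not tested. Depth is unknown, and the spread between pools sets the precision.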
